A study of Mus musculus with 8 samples.

Results

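Transcript levels of 7 ion channel genes that set the firing of auditory neurons were measured in whole cochleae of wild-type (WT) and Opa1+/- mice. The genes are Scn1a, Scn8a, Scn4b, Kcna1, Kcna2, Kcnc1 and Hcn2, taken by name from the count tables, and they are 7 of the 47502 gene symbols listed there. The study sequenced RNA from the cochleae of 4 Opa1+/- mice (Het_2, Het_7, Het_484 and Het_491 in the labels) and 4 WT littermates (WT_4, WT_5, WT_6 and WT_8), untreated and 21 days old, to find changes in cochlear gene expression that precede the hearing loss of this line. The mutants carried 1 copy of Opa1 with the deletion of the bases TTAG known from human dominant optic atrophy, in every cell and from conception, and both genotypes shared a mixed C57BL/6 J and 129 Sv/Pas background. Homozygous mutants die as embryos, so the design holds no mouse without a normal copy. The RNA came from the whole organ, in which auditory neurons are a minority, and in such bulk samples fewer cells of a type and less RNA per cell cannot be told apart. The sex of each mouse is not given in the labels.

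Spiral ganglion neurons carry sound information from the inner hair cells to the brainstem and fire at high, precisely timed rates. Their spikes are started and renewed by voltage-gated sodium channels clustered at the heminode next to the hair cell and at the nodes of Ranvier, and are cut short by fast potassium channels. Low-threshold potassium channels beside the nodes hold back repetitive firing, and channels opened by hyperpolarization set the resting potential and speed the response to synaptic input. Opa1 itself encodes a dynamin-related GTPase that fuses the inner mitochondrial membranes and keeps cristae in shape.

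Depth ranged from 15978051 to 20828030 counts on named genes per mouse. Opa1 was lower in each Opa1+/- mouse (60.4 to 70.02 CPM, counts scaled to a common library size) than in any WT mouse (111.7 to 125.9 CPM), with a log2 fold change of -0.87 (SE 0.068, adjusted p = 0.00515, edgeR's quasi-likelihood test, Benjamini-Hochberg adjusted). All 18 markers of spiral ganglion neurons and all 10 hair cell markers listed were detected in every mouse. The tissue also held RNA of other sources, and 1 library stood apart in it. In WT mouse 6, a list of 9 markers of nociceptive sensory neurons summed to 9.50 CPM, against 256 to 402 CPM in the other 7 mice. These genes, such as Scn10a, Trpv1 and Calca, belong to neurons of the somatosensory ganglia, and the list was chosen after the sodium channel values had been seen. All 9 were lowest in WT mouse 6. This mouse also had the most skeletal muscle marker RNA, 2159 CPM beside 17.998 to 1052 CPM in the others. The log2 fold changes of the members, the medians of the channel lists and the ratios of the marker sums are therefore also given without WT mouse 6 where leaving it out changed their direction.

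The 7 genes fell into a higher and a lower group by level per kilobase of exon, a scale on which different genes can be set side by side. Over the 8 mice, Kcna2 averaged 28.1 ± 3.06 CPM per kb (SD, n = 8), Kcna1 23.9 ± 1.87, Scn4b 23.8 ± 3.19 and Hcn2 20.7 ± 2.36. Kcnc1 followed at 10.3 ± 1.82 CPM per kb, Scn8a at 8.43 ± 1.10 and Scn1a at 7.29 ± 0.962. The gap between the groups held in every mouse: Hcn2 exceeded Kcnc1 by 1.80- to 2.23-fold, and the ranges of both genes over the 8 mice did not overlap. Within the groups the ranges of neighbours overlapped. Kcna1 exceeded Scn4b in only 3 of 8 mice, whereas Kcna2 exceeded Kcna1 in 8 of 8 by 1.06- to 1.35-fold. Scn8a exceeded Scn1a in 8 of 8 mice by 1.05- to 1.26-fold, although the ranges of both genes overlapped. The length chosen for each gene enters these levels. With the longest annotated transcript in place of all exon bases, Kcna1 rose to 28.4 CPM per kb beside 28.9 for Kcna2, while Kcnc1, Scn8a and Scn1a stayed below the other 4 genes at 12.6, 11.6 and 9.69 CPM per kb.

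**Figure D1:**
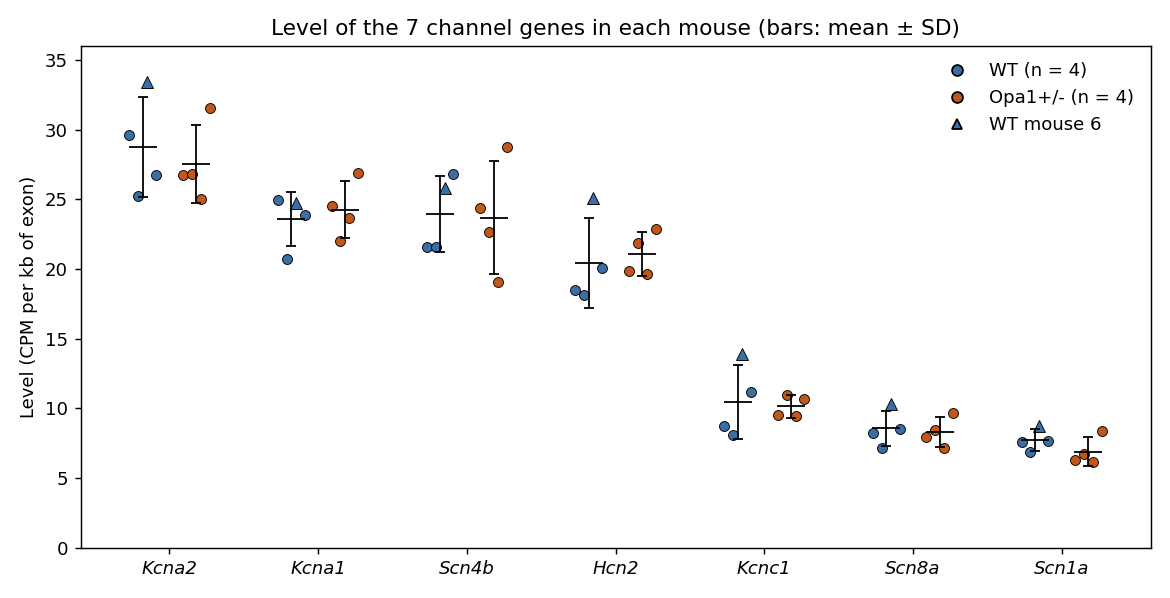
Level of each channel gene in CPM per kilobase of exon, ordered from highest to lowest mean. Points are single mice (blue WT, orange Opa1+/-), the triangle is WT mouse 6, and bars give mean ± SD of 4 mice. Both genotypes overlap for all 7 genes, and Kcnc1, Scn8a and Scn1a lie below the other 4 genes.

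None of the 7 channel genes passed the test for a difference between genotypes. The test called 0 of 7 members at an adjusted p under 0.05, where it called 5 of the 19366 genes tested (0.0258%). No member had an unadjusted p under 0.05, a value reached by 6.72% of all genes, and the groups overlapped for every member, where they did not overlap for 4.31% of all genes (2.33% with Opa1+/- lower and 1.98% with Opa1+/- higher). DESeq2, which called 0.119% of all genes, also called no member. Of the 7, 5 had a lower mean and 2 a higher mean in Opa1+/- mice, and 49.9% of all genes had a log2 fold change below 0. The median log2 fold change was -0.042 over the members and 0.000395 over all genes, and the single values ran from -0.17 for Scn1a to 0.046 for Hcn2. The precision was set by the spread between mice, since counting error in a single mouse was at most 3.14%. Within a genotype the coefficient of variation ran from 7.45% (Hcn2, Opa1+/-) to 25.3% (Kcnc1, WT). Single mice moved the median of the members both ways. It was -0.125 without Het_491 and -0.117 without WT mouse 5, and 0.026 without Het_484. Without WT mouse 6 it turned to 0.058, and 6 of the 7 log2 fold changes were above 0, all but that of Scn1a. Again no member was called, beside 0.00515% of all genes. None had an unadjusted p under 0.05, which 7.82% of all genes had, and none had groups apart, which 9.12% of all genes had.

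**Figure D2:**
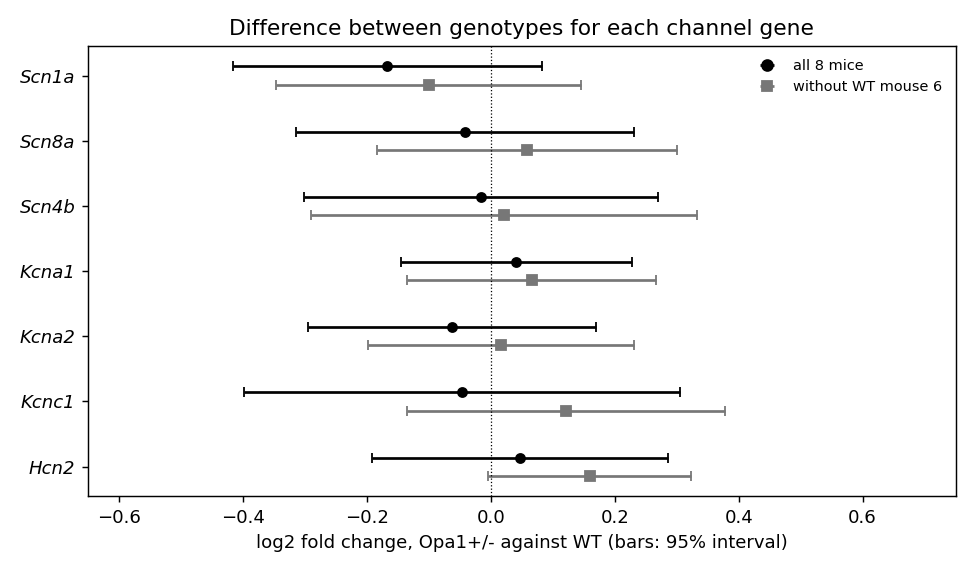
Log2 fold change of each channel gene, Opa1+/- against WT, with its 95% interval from edgeR's quasi-likelihood fit. Black circles use all 8 mice and grey squares leave out WT mouse 6. All intervals include 0, and each square lies to the right of its circle.

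Scn1a and Scn8a encode pore-forming alpha subunits, the first widespread in fast-spiking neurons and the second the main sodium channel of mature nodes of Ranvier. Scn1a (chromosome 2, 66270778 to 66440840, minus strand, GRCm38) had 84.4, 76.4, 97.7 and 85.5 CPM for WT_4, WT_5, WT_6 and WT_8. In Het_2, Het_7, Het_484 and Het_491 it stood at 70.2, 74.6, 68.1 and 93.4 CPM. Of the Opa1+/- mice, 3 lay below all WT mice and Het_491 lay above all WT mice but animal 6. Means were 86.0 ± 8.78 and 76.6 ± 11.5 CPM (SD, n = 4), a log2 fold change of -0.17 (SE 0.11, 95% interval -0.42 to 0.083, adjusted p = 0.790, edgeR). Without Het_491 it was -0.28 (unadjusted p = 0.0117, adjusted p = 0.876, edgeR), and without WT mouse 6 it was -0.10. It was the lowest value of the 7 and the only one whose sign held under every alternative tried. Scn8a (chromosome 15, 100869858 to 101045938, plus strand) had 129.3, 113.2, 162.0 and 134.8 CPM among WT animals. The mutants had 124.8, 133.4, 113.1 and 152.4 CPM, within the WT range but for Het_484, which lay just below it. The log2 fold change was -0.042 (SE 0.12, 95% interval -0.31 to 0.23, adjusted p = 0.960, edgeR), and 0.058 without WT mouse 6.

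The ratio of both alpha subunits within each library was also taken. Scn8a per Scn1a, each per kilobase, was 1.08, 1.05, 1.17 and 1.11 in the WT mice and 1.26, 1.26, 1.17 and 1.15 in the Opa1+/- mice. The lowest Opa1+/- ratio lay below the highest WT ratio, that of WT mouse 6, so the ranges overlapped. Means were 1.10 ± 0.053 and 1.21 ± 0.056 (SD, n = 4). With that mouse left out, the WT ratios ended at 1.11, below all Opa1+/- ratios, with a WT mean of 1.08 ± 0.034 (SD, n = 3), where 9.12% of all genes had groups apart in level. The ratio was examined after the single values and was not tested. Part of the Scn1a transcript sequence is shared with its neighbours on chromosome 2. The longest identical stretch between annotated transcripts was 188 bases with Scn2a, 143 with Scn3a and 103 with Scn9a. Each is longer than 1 read of a pair (80 bases). The counts of Scn1a are to that extent uncertain, whereas the longest stretch of Scn8a shared with any alpha subunit was 55 bases.

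Set against the whole alpha subunit family, 1 mouse stood apart from the other 7, which were of both genotypes. In 7 mice Scn8a made up 14.1% to 19.1% and Scn1a 13.1% to 17.1% of the summed level per kilobase of 9 alpha subunits, Scn7a, a sodium-sensing relative, left out. The same mice gave 25.3% to 31.3% to Scn10a and 13.98% to 16.7% to Scn11a, the alpha subunits of nociceptive neurons. In WT mouse 6, Scn10a and Scn11a made up 0.506% and 0.759%, while Scn8a and Scn1a made up 40.8% and 34.8%. Scn10a itself stood at 1.02 CPM in WT mouse 6 and at 90.1 to 144.7 CPM in the others. By share of the family, Scn8a and Scn1a were thus each ahead of Scn10a in 1 mouse and each behind it in 7.

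**Figure D3:**
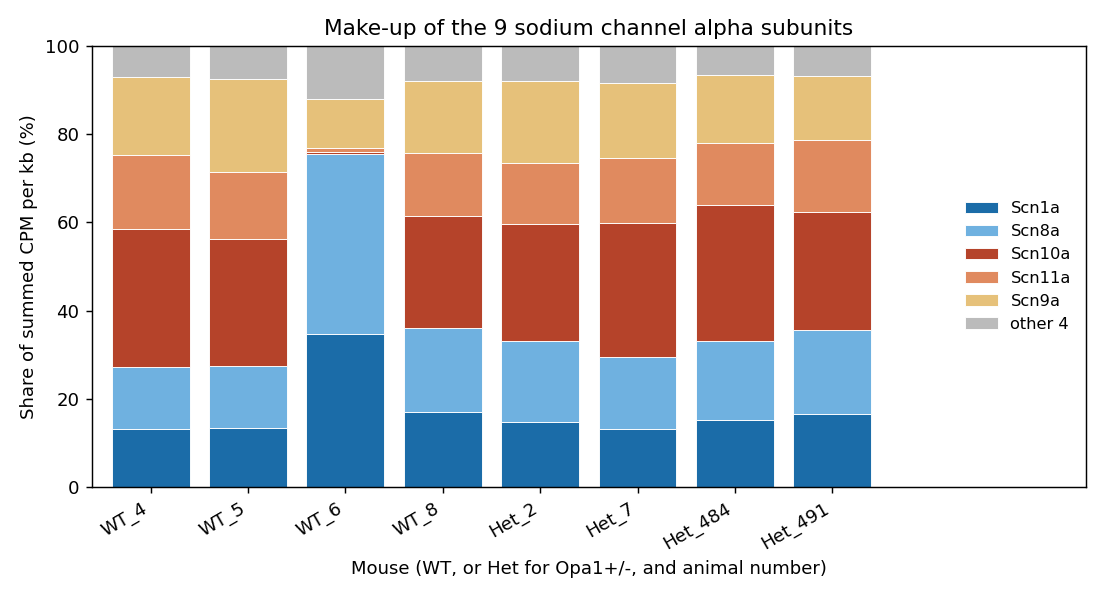
Share of each sodium channel alpha subunit in the summed CPM per kilobase of 9 alpha subunits, 1 bar per mouse, in percent. Scn10a and Scn11a take up 39.6% to 48.0% of the bar in 7 mice and 1.27% in WT mouse 6, where Scn1a and Scn8a fill 75.5%.

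Scn4b encodes an auxiliary beta subunit that binds alpha subunits by a disulfide bond and is tied to the resurgent sodium current of fast-firing neurons. The gene (chromosome 9, 45138395 to 45154152, plus strand) stood at 107.6, 107.6, 128.4 and 133.6 CPM in the WT mice. The Opa1+/- mice had 121.3, 112.8, 94.8 and 143.2 CPM. Het_484 and Het_491 held the lowest and the highest value of all 8 mice. The log2 fold change was -0.016 (SE 0.13, 95% interval -0.30 to 0.27, adjusted p = 0.985, edgeR), and 0.021 without WT mouse 6. Among the 4 beta subunits Scn4b held 23.7% to 29.0% of the level per kilobase. Unlike the share of Scn8a among the alpha subunits, that of Scn4b was not set apart in WT mouse 6 (25.6%).

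Kcna1 and Kcna2 encode the Kv1 alpha subunits that flank the node of Ranvier and give the low-threshold current of auditory neurons. Their coding sequences are close relatives, so the counts could in principle be exchanged between them. The longest stretch identical in both transcripts is 20 bases, far shorter than a read. It is shown with 10 bases on each side, capitals marking the identical bases, from the annotated transcripts of GENCODE vM21 (GRCm38, chr6:126642333-126642372, minus strand, and chr3:107105094-107105133, plus strand):
Kcna1: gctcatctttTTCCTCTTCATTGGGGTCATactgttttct
Kcna2: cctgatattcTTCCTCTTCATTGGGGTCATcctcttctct
In both genes the stretch is coding and unbroken in the genome.

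Kcna1 (chromosome 6, 126640397 to 126646384, minus strand) had the smallest spread over the 8 mice relative to its mean. WT animals had 119.2, 99.1, 118.4 and 114.0 CPM, and the mutants 117.2, 105.3, 112.9 and 128.4 CPM. WT mouse 5 was the lowest and Het_491 the highest, with the others between. Means were 112.7 ± 9.31 and 116.0 ± 9.66 CPM (SD, n = 4), a log2 fold change of 0.041 (SE 0.083), whose 95% interval ran from 0.905- to 1.17-fold (adjusted p = 0.940, edgeR). Kcna2 (chromosome 3, 107101146 to 107115005, plus strand) was the most abundant member, with 4807 to 6652 counts per mouse. Levels were 352.9, 300.3, 397.4 and 318.7 CPM in the WT mice and 318.5, 318.9, 297.5 and 375.8 CPM in the Opa1+/- mice. WT mouse 6 was again the highest and Het_491 second. The log2 fold change was -0.063 (SE 0.10, 95% interval 0.815- to 1.12-fold, adjusted p = 0.927, edgeR), and 0.017 without WT mouse 6. Together the pair made up most of the Kv1 family, Kcna2 44.3% ± 1.76 and Kcna1 37.7% ± 1.91 (SD, n = 8) of the level per kilobase of 8 alpha subunits. Kcna2 per Kcna1 was 1.22 ± 0.095 in WT and 1.13 ± 0.073 in Opa1+/- mice (SD, n = 4), with overlapping ranges, and the WT mean was 1.18 ± 0.049 without WT mouse 6 (SD, n = 3).

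Kcnc1 encodes a Kv3 subunit whose rapid opening and closing at positive voltages lets neurons fire at high rates. The gene (chromosome 7, 46396497 to 46438704, plus strand) varied most between WT mice. It stood at 82.4, 76.7, 131.7 and 105.3 CPM there, and at 89.8, 103.7, 89.1 and 100.9 CPM in the Opa1+/- mice. WT mice held both the 2 lowest values and the 2 highest, with all 4 Opa1+/- mice between them, so the coefficient of variation was 25.3% in WT (17.2% without WT mouse 6) and 7.87% in Opa1+/- mice. The log2 fold change was -0.046 (SE 0.16, 95% interval -0.40 to 0.31, adjusted p = 0.964, edgeR). Without WT mouse 6 it was 0.12 (SE 0.11, adjusted p = 0.777, edgeR). Kcnc1 made up 24.4% ± 1.24 (SD, n = 8) of the level per kilobase of the 4 Kv3 subunits.

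Hcn2 encodes a subunit of the channels that open on hyperpolarization and carry a mixed sodium and potassium current. The gene (chromosome 10, 79716634 to 79736108, plus strand) had the fewest counts of the 7, 1015 to 1395 per mouse. WT animals had 59.0, 57.9, 80.1 and 64.1 CPM, and the mutants 63.5, 69.9, 62.8 and 73.1 CPM. WT mouse 6 lay above all others, and WT mice 4 and 5 below all others. The log2 fold change was 0.046 (SE 0.11, 95% interval -0.19 to 0.29, adjusted p = 0.947, edgeR). It was the member that WT mouse 6 moved most towards a difference: without that mouse the log2 fold change was 0.16 (SE 0.072, 95% interval -0.0043 to 0.32, adjusted p = 0.642, edgeR), and the groups still overlapped. Hcn2 held 74.3% ± 1.95 (SD, n = 8) of the 4 HCN subunits per kilobase, between 72.0% and 78.2% in every mouse.

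The levels of the members moved together from mouse to mouse, with high and low mice in both genotypes. All 7 lay above their own mean over 8 mice in WT mouse 6 and in Het_491, and all 7 lay below it in WT mouse 5 and Het_484. The median deviation was 0.27 and 0.17 (log2) in the first pair and -0.19 and -0.16 in the second, so each genotype held 1 high and 1 low mouse. The summed spiral ganglion neuron markers were lowest in the same low mice, 7060 CPM in WT mouse 5 and 7076 CPM in Het_484, and highest in Het_491 at 8317 CPM, with 7656 CPM in WT mouse 6 and 7488 to 8235 CPM in the other 4. WT mouse 6 had the highest level of 5 members and Het_491 that of the other 2, Scn4b and Kcna1. Over the 8 mice all 21 pairs of members correlated positively, with a median Pearson r of 0.64 (0.37 to 0.92), and without WT mouse 6 the median was 0.63 (0.28 to 0.85). These points share library depth and tissue make-up. The values are descriptions, with no r over pairs of all genes beside them. The pairs with the highest r over 8 mice were Kcnc1 with Hcn2 (r = 0.92, and 0.83 without WT mouse 6) and Scn8a with Kcna2 (r = 0.92, and 0.85 without it). With that mouse left out, Scn8a with Kcna2 came first, Scn8a with Scn4b next (r = 0.85) and Kcnc1 with Hcn2 after them.

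**Figure D4:**
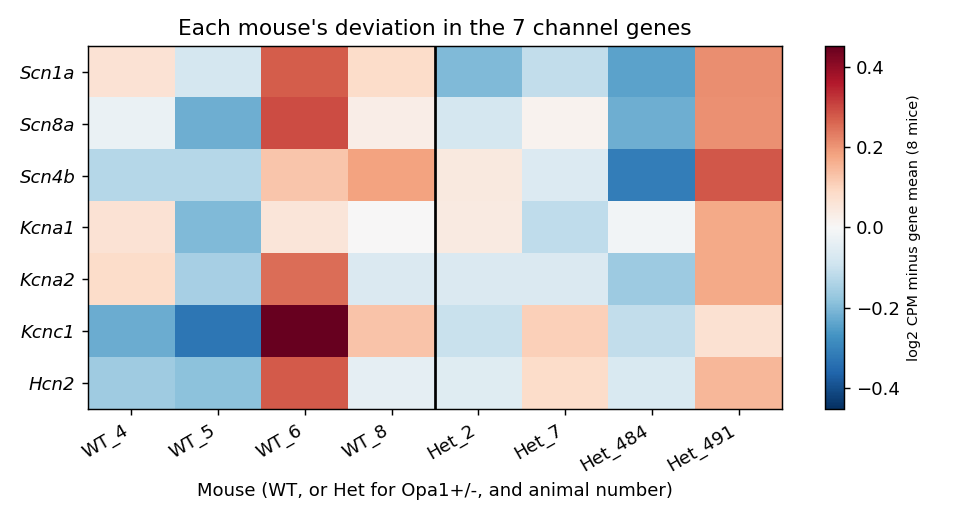
Deviation of each mouse (columns) from the gene's mean log2 CPM over 8 mice, for the 7 channel genes (rows). Red is above and blue below the mean, and the black line separates WT from Opa1+/- mice. WT_6 and Het_491 are above the mean in all 7 genes, and WT_5 and Het_484 below it in all 7.

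The promoters of Kcnc1 and Hcn2, 1 of the pairs that moved together most, are shown around the start of each gene (RefSeq, GRCm38.p6). Capitals mark the GC box GGGCGG read on either strand, the letters bound by Sp family factors, and overlapping copies run on:
Kcnc1 (chr7:46396218-46396517, plus strand): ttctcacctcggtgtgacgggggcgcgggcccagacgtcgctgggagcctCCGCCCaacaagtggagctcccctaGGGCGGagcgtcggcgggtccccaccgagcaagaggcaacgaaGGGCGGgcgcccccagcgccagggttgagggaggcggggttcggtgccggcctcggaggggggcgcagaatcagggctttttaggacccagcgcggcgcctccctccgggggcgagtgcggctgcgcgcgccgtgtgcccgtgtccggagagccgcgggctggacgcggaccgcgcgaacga
Hcn2 (chr10:79716384-79716683, plus strand): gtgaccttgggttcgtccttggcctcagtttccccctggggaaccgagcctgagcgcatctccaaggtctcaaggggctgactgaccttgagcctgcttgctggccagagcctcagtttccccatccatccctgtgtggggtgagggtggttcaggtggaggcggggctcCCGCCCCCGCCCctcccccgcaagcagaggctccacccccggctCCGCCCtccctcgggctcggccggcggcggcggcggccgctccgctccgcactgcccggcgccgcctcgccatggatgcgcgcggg
Each of these promoters holds 3 GC boxes, and 35.7% of the 32851 promoters listed hold at least 1. Their GC content was 74.7% and 72.3%, against a median of 52.7% over all promoters. Among the other members with an entry, Kcna2 had 1 GC box and Scn1a, Scn8a and Scn4b had none, and the GC content was 66.7% for Kcna2, 66.3% for Scn4b and 47.3% for Scn1a. Scn8a has 2 entries, 1 of 53.3% and 1 with a higher GC content than 90.4% of all promoters. No promoter entry was found for Kcna1. A match is a description of these letters and says nothing of a factor.

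Of all genes tested with at least 5 CPM on average, the 5 whose levels over the 8 mice were most like those of the members were Slc22a6, Camk1g, Adcy1, Slc25a4 and Nrxn3. Their median Pearson r with the 7 members ran from 0.864 to 0.886 over 8 mice. It ran from 0.716 for Slc25a4 to 0.840 for Nrxn3 over the 7 mice without WT mouse 6. Slc25a4, the muscle and heart form of the mitochondrial adenine nucleotide carrier, was the most abundant at 430 to 511 CPM.

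Taken as a sum, the 7 members came to 935, 831, 1116 and 956 CPM among WT animals and to 905, 919, 838 and 1067 CPM among the mutants. The means were 959 ± 118 and 932 ± 96.5 CPM (SD, n = 4), an Opa1+/- to WT ratio of 0.972. Leaving out single mice moved it to 1.03 (WT mouse 6), 1.01 (Het_484), 0.931 (WT mouse 5) and 0.923 (Het_491). To set the channels against the other RNA of neurons, the sum was divided by that of 18 spiral ganglion neuron markers. This share was 11.3%, 11.8%, 14.6% and 12.2% in the WT mice and 12.1%, 12.2%, 11.8% and 12.8% in the Opa1+/- mice. WT mouse 6 was the highest, and the other 7 lay within 11.3% to 12.8%. The ratio of the group means was 0.981, or 1.04 without WT mouse 6.

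The neuron markers that form this denominator did not move as one list in WT mouse 6. Of the 18, 6 were lowest in that mouse (Tubb3, Prph, Stmn2, Rbfox3, Sncg and Uchl1) and 5 were highest (Nefh, Snap25, Syt2, Calb2 and Slc17a7). Prph, an intermediate filament of type II auditory and of small sensory neurons, stood at 76.1 CPM there and at 221 to 345 CPM in the others. Nefh, the heavy neurofilament chain, stood at 1581 CPM there and at 1042 to 1397 CPM in the others. The 9 nociceptive markers were low in the same mouse, and their part in the share of 14.6% was not tested.

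**Figure D5:**
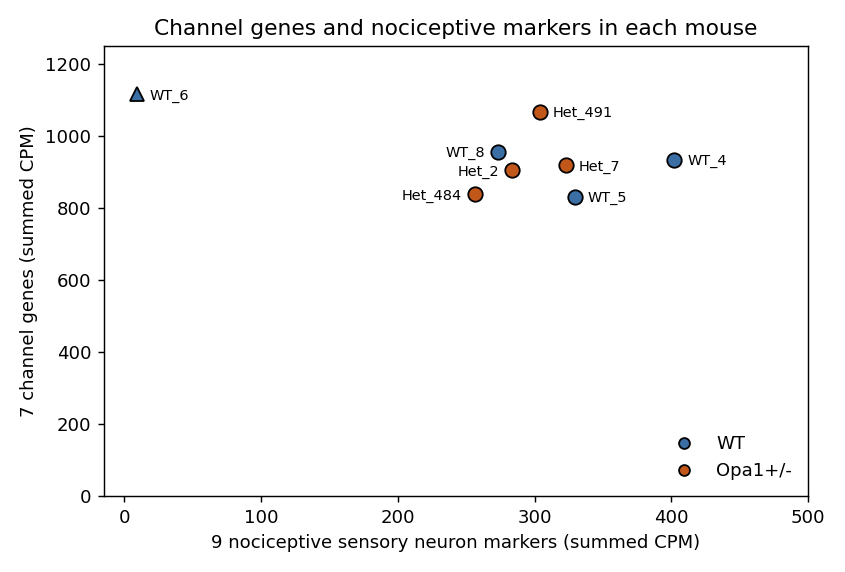
Summed CPM of the 7 channel genes (vertical axis) against summed CPM of 9 nociceptive sensory neuron markers (horizontal axis), 1 point per mouse. WT_6 (triangle) lies alone at 9.50 CPM of nociceptive markers with the highest channel sum, 1116 CPM, and the other 7 mice mix both genotypes.

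The marker sums of cell types that could hold or dilute these channels overlapped between genotypes, in a design too small for a single list to pass an adjusted p under 0.05. Spiral ganglion neuron markers summed to 7701 ± 490 CPM in the WT group and 7610 ± 517 CPM in the mutants (SD, n = 4, exact permutation p = 0.771, adjusted 0.926 over 6 lists). Hair cell markers summed to 130.1 ± 24.5 and 129.998 ± 9.89 CPM (exact permutation p = 1), a ratio of 0.999 and of 1.07 without WT mouse 6. Schwann cell and myelin markers, the glia that wrap auditory axons, summed to 3981 ± 590 and 4568 ± 608 CPM (exact permutation p = 0.257, adjusted 0.771). Central nervous system markers summed to 498 ± 156 and 532 ± 93.3 CPM (exact permutation p = 0.771), mostly from the glial genes Gfap and Mobp, while the neuronal genes of the list were low. Neurod2 and Gabra6 stayed below 1 CPM in every mouse, and Neurod1, which other neurons and endocrine cells also use, ranged from 0.828 to 2.00 CPM. Without WT mouse 6 the ratio of Opa1+/- to WT sums rose from 1.07 to 1.25 (exact permutation p = 0.286). The sum was highest in WT mouse 6 (713 CPM) and Het_491 (635 CPM), the mice with the highest channel levels. Hair cell markers were highest in the same mice, at 155.6 and 142.3 CPM. Over the 8 mice, Pearson r with the summed members was 0.69 for spiral ganglion neuron, 0.61 for hair cell and 0.57 for central nervous system markers. Within the first list, r of single markers ran from -0.61 for Prph to 0.91 for Syt2. The points share library depth and tissue make-up, and the part of these lists in the channel levels was not tested. Skeletal muscle markers ranged from 222 to 2159 CPM in WT and from 17.998 to 1052 CPM in the mutants (exact permutation p = 0.714), a ratio of 0.643 that turned to 1.37 without WT mouse 6. Erythroid markers, of which 9 of 10 were listed, summed to 12574 ± 6254 and 18519 ± 4620 CPM (exact permutation p = 0.171, adjusted 0.771). Without WT mouse 4, the WT mouse with the most, their ratio rose from 1.47 to 1.93 (exact permutation p = 0.0286, adjusted 0.171). With 4 mice a group the smallest p this test can give is 0.0286, which for 1 list alone becomes 0.171 after adjustment over 6, so these p-values do not show that the sums were alike.

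The other channels of excitable cells were followed as 7 lists, beside 1 list of proteins that organise the node. No gene of the 8 lists passed an adjusted p under 0.05 by edgeR or DESeq2, and the groups overlapped for every gene tested. Of 11 further sodium channel subunits, 5 had a higher and 6 a lower mean in Opa1+/- mice, with a median log2 fold change of -0.027. The list holds Scn10a and Scn11a, and its median was -0.16 without WT mouse 6, with 8 of 11 lower, and 0.083 without Het_484. Scn2b, a beta subunit, had the lowest p of the list, with a log2 fold change of 0.17 (SE 0.097, adjusted p = 0.766, edgeR). The median was 0.023 over 9 further Kv1 subunits (-0.035 over 8 without WT mouse 6, and 0.10 without Het_484), where Kcnab2, a beta subunit, led at 33.4 CPM per kb, and 0.025 over 14 Kv2, Kv3 and Kv4 subunits and partners (-0.058 without WT mouse 6, and 0.078 without WT mouse 4). In the latter, Kcnd2, an A-type subunit, had the lowest p at a log2 fold change of -0.42 (SE 0.23, adjusted p = 0.764, edgeR).

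The list of Kv7 and ether-a-go-go subunits was the most one-sided with all 8 mice. Of 12 tested, 11 had a lower mean in Opa1+/- mice, beside 49.9% of all genes, with a median log2 fold change of -0.086, but 0 were called. Without WT mouse 6 the count was 9 of 12 and the median -0.10. In that setting 10 of 14 Kv2, Kv3 and Kv4 genes and 8 of 11 further sodium channel subunits were also lower. Kcnh2, the hERG subunit, was the highest at 9.16 CPM per kb, averaging 45.5 ± 7.44 CPM for WT and 43.2 ± 3.78 for Opa1+/- (SD, n = 4). Kcnh5 had the lowest p, with 4.51, 4.05, 5.08 and 4.31 CPM for WT_4, WT_5, WT_6 and WT_8 and 2.13, 3.96, 2.91 and 4.15 CPM for the 4 mutants. Het_491 lay within the WT range and the other 3 below it, for a log2 fold change of -0.45 (SE 0.21, adjusted p = 0.749, edgeR).

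Across the lists only 2 genes had an unadjusted p under 0.05. Kcnn4, a calcium-activated potassium channel known from blood cells and epithelia, averaged 11.4 ± 2.10 CPM for WT and 14.8 ± 2.36 for Opa1+/- (log2 fold change 0.37, SE 0.16, adjusted p = 0.732, edgeR). Nalcn, the sodium leak channel that sets resting excitability, had 47.8, 52.5, 49.3 and 47.4 CPM among WT animals, while the mutants had 38.0, 50.5, 42.3 and 37.6 CPM. Het_7 lay within the WT range and the other 3 below it, for a log2 fold change of -0.23 (SE 0.095, adjusted p = 0.728, edgeR). Without WT mouse 6 neither had an unadjusted p under 0.05. Of the 8 lists, 4 other genes then had one, all lower in Opa1+/- mice: Kcna4, Kcnip4, Kcnh6 and Adam22, with adjusted p-values of 0.636 by edgeR. These were 4 of the 81 list genes tested there (4.94%), beside 7.82% of all genes. With all 8 mice, an unadjusted p under 0.05 was reached on the higher side by 3.51% and on the lower side by 3.22% of all genes. The calcium- and sodium-activated list had a median of -0.039 (0.017 without WT mouse 6) with Kcnt1 highest at 6.88 CPM per kb. The leak list had a median of -0.023 (0.0088 without it) with Kcnk1, a two-pore subunit, highest at 45.7 CPM per kb. The HCN list without Hcn2 had a median of 0.043, with the HCN partner Pex5l highest at 6.82 CPM per kb and Hcn3 lowest in p (log2 fold change 0.17, SE 0.13, adjusted p = 0.810, edgeR). The lowest p of the Kv1 list was that of Kcna3, a channel of lymphocytes, at 1.44 ± 0.450 and 1.09 ± 0.159 CPM (adjusted p = 0.802, edgeR).

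The 15 organisers of the node, which anchor the channels described above, had a median log2 fold change of 0.0030 (-0.025 without WT mouse 6) and spanned -0.15 to 0.12. Epb41l3, the cytoskeletal linker that holds Kv1 channels beside the node, averaged 302.2 ± 41.1 CPM for WT and 302.9 ± 27.4 CPM for Opa1+/- (SD, n = 4). Adam22, which joins the same Kv1 complex, had the lowest p, with 91.7 ± 9.03 and 82.6 ± 8.98 CPM (log2 fold change -0.15, SE 0.098, adjusted p = 0.790, edgeR). Only 1 annotated gene overlapped a member, Gm13630 on the opposite strand of Scn1a. It shared 0 exon bases with Scn1a and had 0 to 3 counts per mouse.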

How the data were processed

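RNA seq of cochleae from 4 WT and 4 Opa1+/- mice at 21 days was analysed. The authors made CORALL libraries with molecular identifiers, read them as pairs of 80 bases, checked them with FastQC and mapped them to GRCm38 with STAR. They deposited raw counts per gene symbol, 1 table per mouse, not normalized. The counting program and use of strand are not given in the sources used here. The study's methods describe extraction by TRI Reagent with column purification, whereas the labels name TRI Reagent or an RNeasy kit without saying for which mice.

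The 15 entries without a gene name (0.112% to 0.124% of counts) were left out, leaving 47628 entries. Library sizes were named counts scaled by TMM (factors 0.948 to 1.06). The 19366 genes with a mean over 10 after DESeq2 size factors were tested by edgeR 4.0.16 (quasi-likelihood, Benjamini-Hochberg over all genes, adjusted p under 0.05). The standard error is the absolute log2 fold change over the square root of F. CPM use these library sizes, and log2 CPM a pseudocount of 0.5. Levels per kilobase use all exon bases of GENCODE vM21. For marker sums, all 70 arrangements of the mice gave an exact permutation p (two-sided). The p-values judge the difference between genotypes against the spread between these mice.

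The members and lists were chosen with earlier results of these data known. Named were all 7 members, and of each channel list every gene past the threshold, the highest per kilobase and that with the lowest p, the 5 genes most like the members, and genes overlapping them, some of which are not reported here. Prior to fitting, Scn2a was matched to its older symbol. Alternatives were other library sizes, filters and tests (DESeq2 1.42.0, limma 3.58.1 voom), and mice left out. Scripts ran in R 4.3.3 and Python 3.11.15, with plots by matplotlib 3.10.9.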

Additional observations from a re-analysis of the deposited data

Results flagged for a closer look

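Among 140 groups of 4 mice examined, over the levels, sums and shares reported, 2 held 1 mouse far from the other 3, by a gap over 0.829 of the group's range. Chance sets apart about 1 in 20 such groups. Both times it was WT mouse 6. Its skeletal muscle markers summed to 2159 CPM, with 545 CPM in the next WT mouse and 222 CPM in the lowest. Its share of Scn11a among the 9 sodium channel alpha subunits was 0.759%, with 14.3% to 16.7% in the other WT mice. None of the 7 channel genes was set apart in this way in CPM in either genotype.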

How the results depend on the processing

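No paired analysis was made, since the labels used give an animal number for each mouse and no litter. No member passed an adjusted p under 0.05 in any of the 18 alternatives (lowest 0.529), and of 126 log2 fold changes 13 changed sign. The 5 genes called by edgeR became 12 without a filter on low counts, 10 with library sizes from spiral ganglion neuron markers, 10 with voom, 10 with robust estimation, 23 with DESeq2's Wald test and 0 without Het_484 and Het_491, the last with fewer mice. Leaving out 1 mouse gave 0 (Het_2) to 9 (WT_4) calls. In the fits with 0 calls, Opa1 itself was not called. Without Het_484 and Het_491 the log2 fold change of Kcna1 was -0.019, with voom that of Kcnc1 was 0.0089, and without mitochondrial genes in the library sizes the hair cell marker ratio was 1.00069. The cause of these changes was not tested.

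With single mice left out, the log2 fold change ran from -0.13 (Het_491) to 0.058 (WT_6) for Scn8a, from -0.12 (Het_491) to 0.079 (Het_484) for Scn4b, from -0.015 (WT_5) to 0.085 (Het_7) for Kcna1, from -0.14 (Het_491) to 0.017 (WT_6) for Kcna2, from -0.15 (WT_5) to 0.12 (WT_6) for Kcnc1 and from -0.0071 (WT_5) to 0.16 (WT_6) for Hcn2. Scn1a stayed between -0.28 and -0.10. The list medians ran from -0.064 to 0.039 for calcium- and sodium-activated channels, -0.0045 to 0.084 for other HCN channels, -0.060 to 0.057 for leak channels, -0.029 to 0.033 for node organisers and -0.14 to -0.064 for Kv7 and ether-a-go-go subunits. The Opa1+/- to WT ratio of marker sums ran from 0.956 to 1.01 for spiral ganglion neurons, 0.927 to 1.07 for hair cells, 1.08 to 1.21 for Schwann cells, 0.436 to 1.37 for skeletal muscle, 0.963 to 1.25 for the central nervous system and 1.30 to 1.93 for erythroid cells. The last, without WT mouse 4, had an exact permutation p of 0.0286, the smallest possible (adjusted 0.171). The ratio of the summed members ran from 0.923 to 1.03, and of the members per neuron marker from 0.952 to 1.04. The median of the members ran from -0.125 (Het_491) to 0.058 (WT_6). Another scaling moved the median of all genes by less than 0.1 (log2), from -0.028 to 0.018. The spread between 4 mice, not depth, limits these comparisons: a difference under about the half-width of the intervals given could not be told from 0.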

Other observations

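Other channel genes were also at an extreme in WT mouse 6. Of 66 tested channel genes outside the 7 members, 31 (47.0%) were lowest and 18 (27.3%) highest in that mouse, beside 18.2% and 19.8% of all 19366 genes tested. Among those chosen after these values were seen, Kcna6, a Kv1 subunit, stood at 13.4 CPM there and at 26.8 to 34.8 CPM in the other 7 mice. Scn9a, an alpha subunit of sensory and sympathetic neurons, stood at 36.03 CPM there and at 79.4 to 137 CPM in the others. Scn3b stood at 12.8 against 23.6 to 39.9 CPM, and Kcnh6 at 1.31 against 5.44 to 9.23 CPM. On the high side, Kcnq5, an M-current subunit, stood at 26.4 CPM there and at 9.86 to 14.1 CPM in the others. Kcnn2, the calcium-activated channel of hair cell efferent synapses, stood at 47.6 against 24.0 to 35.4 CPM. Kcnc2, a relative of Kcnc1, stood at 51.7 against 19.0 to 33.1 CPM. None of these genes was called between genotypes by edgeR, with adjusted p-values of 0.790 or more after Benjamini-Hochberg adjustment.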
